A study of Mus musculus with 12 samples.

Results

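Trim30a, Trim30b, Trim30c, Trim30d, Trim12a, Trim12c, Trim34a and Trim34b lie close together on mouse chromosome 7 and encode tripartite motif (TRIM) proteins. They were chosen by symbol, with earlier results of these data known. All 8 had a row among the 32246 genes of the deposited table of FPKM. FPKM are fragments per kilobase of gene length scaled to the counted fragments of each library. The study measured total RNA of mouse macrophages grown from bone marrow over 7 days in GM-CSF (50 ng/mL). Besides untreated cells, the study has a group given plasminogen (PLG) pre-exposed to EACA (epsilon-aminocaproic acid, which occupies the lysine-binding sites of plasminogen) and a group given PLG pre-exposed to EACA together with RNases, both over 24 h. These groups are written untreated, PLG+EACA and PLG+EACA+RNase, and each had 4 libraries. No group received EACA alone or PLG without EACA, so the part of PLG and that of EACA cannot be told apart. RNases were in no group without PLG and EACA, so what RNases do by themselves cannot be told from these libraries. The labels give no strain, age or sex, and they leave unstated if replicates are different mice or different cultures, so p-values measure only the spread between these libraries.

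TRIM proteins carry a RING domain, which acts as an E3 ubiquitin ligase in many members, followed by B-box and coiled-coil domains. The cluster described here belongs to the branch with a C-terminal PRYSPRY domain, which includes the retroviral restriction factor TRIM5, and rodents have extra copies of the Trim12 and Trim30 genes. Many genes of this branch are induced by interferon. TRIM30a is known in macrophages as a feedback inhibitor of Toll-like receptor signalling that promotes the degradation of TAB2 and TAB3, and TRIM12c as a ubiquitin ligase that works with TRAF6 in interferon and NF-kB signalling.

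The deposited table annotates all 8 as protein-coding; positions are those of the table on GRCm38, and strands are from GENCODE M21. On the plus strand are Trim34a (ENSMUSG00000056144.14) at chr7:104244457-104262234 and Trim34b (ENSMUSG00000090215.9) at chr7:104329471-104336909. On the minus strand the Trim12 genes are Trim12a (ENSMUSG00000066258.13) at chr7:104299894-104315466 and Trim12c (ENSMUSG00000057143.15) at chr7:104338754-104353362. Beyond them lie Trim30b (ENSMUSG00000052749.9) at chr7:104355382-104369884, Trim30c (ENSMUSG00000078616.2) at chr7:104382065-104400837, Trim30a (ENSMUSG00000030921.17) at chr7:104409025-104465193 and Trim30d (ENSMUSG00000057596.13) at chr7:104470014-104507849, also on the minus strand.

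The depth implied by the smallest FPKM increments was 12940897 to 22677058 reads per library. All 8 macrophage markers examined were expressed, with a summed FPKM of 5191 to 5790 in untreated, 3955 to 5790 in PLG+EACA and 3951 to 4470 in PLG+EACA+RNase libraries. Most of that sum was Lyz2, and single markers moved apart: mean FPKM of Csf1r was 324, 187 and 186 in untreated, PLG+EACA and PLG+EACA+RNase, and that of Mertk 5.97, 13.9 and 9.20. Of 8 conventional dendritic cell markers 4 were expressed, with sums of 570.01 to 621, 423 to 557 and 519 to 571 FPKM over all 8. Most of that sum was Itgax, at a mean of 507, 386 and 405 FPKM in untreated, PLG+EACA and PLG+EACA+RNase. In the same order Ccr7 was at 78.5, 99.9 and 122, Zbtb46 at 3.47, 4.66 and 5.57, and Clec9a at 4.97, 2.20 and 2.89 FPKM. Sums of T and NK cell markers and of B cell markers were at most 0.791 and 0.56 FPKM. Of 6 markers of plasmacytoid dendritic cells, a strong source of interferon, 3 had a group mean of at least 1 FPKM; the sums were 5.94 to 8.38, 5.77 to 6.68 and 5.12 to 7.55 FPKM in the 3 groups, and Siglech was under 0.1 FPKM in every library. Stroma and endothelium markers summed to 6.98 to 16.7, 1.98 to 17.1 and 2.62 to 11.4 FPKM. Summed neutrophil markers were 14.1 to 58.1, 26.1 to 70.3 and 24.7 to 60.3 FPKM in the 3 groups, and the part of other cell types in the results was not tested. Replicate 4 stood apart in both treated groups. On the second principal component (15.6% of the variance), replicate 4 of PLG+EACA was at 30.4 against 7.26 to 10.3 for the others, and replicate 4 of PLG+EACA+RNase was at -3.54 against -27.2 to -12.6. Among the 7 cluster genes that were tested, replicate 4 was the highest library for 7 in PLG+EACA+RNase and for 6 in PLG+EACA, so results without it are given beside the main ones.

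The starts of Trim30a, Trim30c and Trim30d carry related sequences, as do those of Trim12a and Trim12c. RefSeq gives, on GRCm38.p6, the 250 bases before and 50 bases after the start of all 8 genes. These 300-base promoters were searched on both strands for GAAANNGAAA, the core of the interferon-stimulated response element. It was found in 5 of the 8 (Trim30a, Trim30d, Trim12a, Trim12c and Trim34a), and in 1131 (3.44%) of the 32851 promoters of that length in RefSeq, which belong to 3.99% of its genes. The promoter of the neighbouring Trim5, which is not among the 8, also holds it, 49 bases before the start. The letters were not in the windows of Trim30b, Trim30c and Trim34b. In the case of Trim30b the RefSeq start lies 11238 bases from the start in the deposited table. In each of the 5 promoters the match reads GAAANNGAAA on the strand opposite to the gene. The 30 bases around it are printed 5′ to 3′ on the strand of the gene, with the match in capitals. The Trim30c line shows the place that aligns with the match of Trim30a.

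Trim30a, chr7:104465210-104465239, minus strand: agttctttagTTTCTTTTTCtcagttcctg

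Trim30d, chr7:104507871-104507900, minus strand: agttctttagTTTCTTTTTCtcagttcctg

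Trim30c, chr7:104400896-104400925, minus strand: agttctgtggTTCCTTTTTCtcagttccac

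Trim12a, chr7:104315466-104315495, minus strand: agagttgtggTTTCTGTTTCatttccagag

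Trim12c, chr7:104353359-104353388, minus strand: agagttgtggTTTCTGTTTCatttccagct

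Trim34a, chr7:104244457-104244486, plus strand: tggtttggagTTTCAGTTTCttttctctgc

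The 10 capital letters of Trim30a and Trim30d are the same, and Trim30c differs from both by the single substitution T3C, counted from 1 at the 5′ end of the capitals. The match begins 36 bases before the start of Trim30a, 41 before that of Trim30d and 29 before that of Trim12c, and at base 11 of the transcripts of Trim12a and of Trim34a. RefSeq lists a second start of Trim30a, whose promoter holds the same 10 letters. The aligned place in Trim30c begins 137 bases before its start. The promoters of Trim30a and Trim30d had 276 identical bases of 295 aligned (93.6%), and those of Trim30a and Trim30c 165 of 191 (86.4%). The 250 bases before the start of Trim30a and of Trim30c are given because these genes had, respectively, the highest level and the largest fold change of the cluster. Capitals mark the same 10 bases as above.

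Trim30a, chr7:104465194-104465443, minus strand: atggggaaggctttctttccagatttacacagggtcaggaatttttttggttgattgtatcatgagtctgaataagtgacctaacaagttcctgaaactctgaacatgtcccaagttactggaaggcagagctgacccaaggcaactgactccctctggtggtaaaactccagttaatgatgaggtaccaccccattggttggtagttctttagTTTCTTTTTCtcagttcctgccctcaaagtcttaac

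Trim30c, chr7:104400779-104401028, minus strand: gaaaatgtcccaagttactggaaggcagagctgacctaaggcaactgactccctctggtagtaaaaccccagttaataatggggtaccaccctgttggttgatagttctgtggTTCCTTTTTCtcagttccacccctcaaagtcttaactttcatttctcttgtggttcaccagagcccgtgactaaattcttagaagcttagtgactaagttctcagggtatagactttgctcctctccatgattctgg

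A second form with a 1-base spacer, GAAANGAAA, which was chosen after the promoters had been read, is in the promoters of 6 of the 8 genes, the same 5 and Trim30c, where it lies 101 bases before the start. It is also in the Trim5 promoter and in 3.17% of all promoters, and in Trim34a, Trim12a, Trim12c and Trim5 a match overlaps the form with the longer spacer. These matches describe letters and were not tested as binding sites.

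Each of the 7 genes that could be tested was called higher after either treatment than in untreated macrophages. Between the treatments, 6 of them were called lower in PLG+EACA+RNase. Of all 11165 genes tested, 14.9% were called higher after PLG+EACA, 16% higher after PLG+EACA+RNase, and 8.73% lower between the treatments. The 7 include Trim30b, which reached 1 FPKM in 0 untreated libraries and passed the filter on low values only through treated ones. Trim30c had the largest change, 20.7-fold higher with PLG+EACA and 10.5-fold higher with PLG+EACA+RNase than untreated. Trim30a and Trim30d rose 4.27-fold and 4.58-fold with PLG+EACA, Trim34a 2.92-fold, and Trim12c and Trim12a 1.92-fold and 1.87-fold. Trim34b stayed at or under 0.416 FPKM in all 12 libraries. The calls of Trim12a and Trim12c for PLG+EACA+RNase against untreated, and of Trim34a between the treatments, were lost when single libraries were left out. Without replicate 4 of both treatments, a choice made after seeing the data, limma called 7 of 7 tested genes higher with PLG+EACA, 6 of 7 higher with PLG+EACA+RNase and 6 of 7 lower between the treatments, where 15.9%, 17.2% and 11.8% of 10991 genes were so called. Trim12a with PLG+EACA+RNase was the one not called higher (adjusted p = 0.086). In that fit the log2 fold changes of Trim30c were 4.29, 3.17 and -1.11, and those of Trim30a 1.99, 1.18 and -0.82, for the comparisons in that order.

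**Figure D1:**
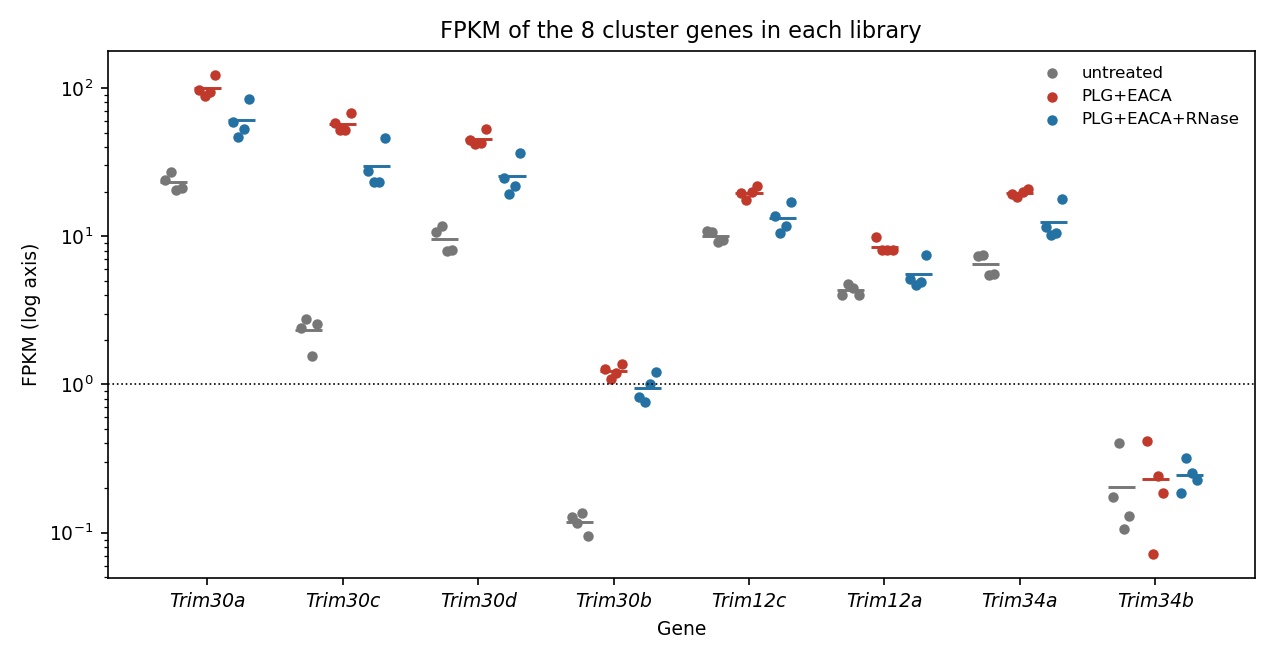
FPKM (log axis) of the 8 cluster genes in each of 12 libraries, with points for libraries and bars for group means of 4 (grey untreated, red PLG+EACA, blue PLG+EACA+RNase); the dotted line is 1 FPKM. The red points of Trim30c, 51.6 to 68.1 FPKM, lie far above the grey points at 1.57 to 2.76, and Trim34b lies under 1 in every library.

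Trim30a was the most abundant gene of the cluster in every library. It was at 23.9, 27.0, 20.4 and 21.1 FPKM in untreated replicates 1 to 4, at 96.9, 88.9, 93.2 and 122.8 in PLG+EACA, and at 58.8, 46.5, 53.1 and 83.6 in PLG+EACA+RNase. None of the 3 groups overlapped with another, and replicate 4 was the highest of both treated groups. The means were 23.1 ± 2.98, 100.5 ± 15.3 and 60.5 ± 16.2 FPKM (SD, n = 4), from 1459 to 8845 reads per library. Tested with limma on log2(FPKM + 0.5) and adjusted over 11165 genes by Benjamini-Hochberg, the log2 fold change was 2.09 (SE 0.16, adjusted p = 8e-07) for PLG+EACA against untreated. It was 1.34 (adjusted p = 2.14e-05) for PLG+EACA+RNase against untreated and -0.75 (adjusted p = 0.0115) for PLG+EACA+RNase against PLG+EACA.

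Trim30d, the copy that lies beside Trim30a and shares 93.6% of its aligned promoter bases, followed Trim30a closely at a lower level. Its FPKM was 10.7, 11.7, 7.97 and 8.10 in untreated libraries, 44.2, 41.6, 42.6 and 53.1 in PLG+EACA, and 24.6, 19.1, 21.96 and 36.4 in PLG+EACA+RNase. The 3 groups did not overlap. By limma it was 2.19 (SE 0.18, adjusted p = 1.11e-06) on the log2 scale above untreated with PLG+EACA and 1.34 (adjusted p = 4.67e-05) with PLG+EACA+RNase. It was lower by 1.81-fold in PLG+EACA+RNase than in PLG+EACA (adjusted p = 0.0107). Trim30d stood at 38.3% to 44.7% of the Trim30a FPKM in untreated libraries, 43.2% to 46.8% in PLG+EACA and 41.1% to 43.6% in PLG+EACA+RNase.

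Trim30c went from one of the lowest levels in the cluster to the second highest group mean. It was at 2.39, 2.76, 1.57 and 2.57 FPKM in untreated libraries (55 to 89 reads), at 57.7, 52.1, 51.6 and 68.1 in PLG+EACA, and at 27.6, 23.1, 23.3 and 45.9 in PLG+EACA+RNase. No group overlapped with another. Limma gave log2 fold changes of 4.37 (SE 0.21, adjusted p = 3.81e-08) and 3.40 (adjusted p = 1.8e-07) over untreated. PLG+EACA+RNase was 1.97-fold lower than PLG+EACA (log2 fold change -0.98, adjusted p = 0.0108).

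The rise of Trim30c exceeded that of its neighbour Trim30a in each treated library. As a percentage of Trim30a FPKM in the same library, Trim30c was 9.97%, 10.2%, 7.66% and 12.1% in untreated macrophages. It was 59.6%, 58.6%, 55.4% and 55.4% with PLG+EACA and 47.0%, 49.6%, 43.9% and 54.8% with PLG+EACA+RNase. Untreated libraries did not overlap with either treated group, and the treated groups did not overlap with each other. The log2 ratio of Trim30c to Trim30a was 2.28 higher with PLG+EACA and 2.05 higher with PLG+EACA+RNase than untreated, and it differed by -0.23 between PLG+EACA+RNase and PLG+EACA. Each of these differences had p = 0.0286 by a two-sided exact permutation test, the smallest that 4 against 4 libraries allow, and an adjusted p of 0.0686 over the 12 ratio tests made, of which 5 had an unadjusted p under 0.05 and 0 passed after adjustment.

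Trim30b was the weakest of the tested genes. It was at 0.128, 0.117, 0.136 and 0.095 FPKM in untreated libraries (12 to 21 reads), at 1.27, 1.08, 1.20 and 1.38 in PLG+EACA (161 to 187 reads), and at 0.828, 0.756, 1.01 and 1.21 in PLG+EACA+RNase. The untreated libraries were all lower than the treated ones, while the treated groups overlapped. The mean FPKM was 10.4-fold higher with PLG+EACA and 7.97-fold higher with PLG+EACA+RNase than untreated. On the log2(FPKM + 0.5) scale, which understates changes of low genes, the fold changes by limma were 1.48 (adjusted p = 1.2e-06) and 1.22 (adjusted p = 5.65e-06). The difference between the treatments, -0.27, did not pass (adjusted p = 0.142). Trim30b passed the filter on low values, 1 FPKM in at least 4 libraries, only through treated libraries.

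**Figure D2:**
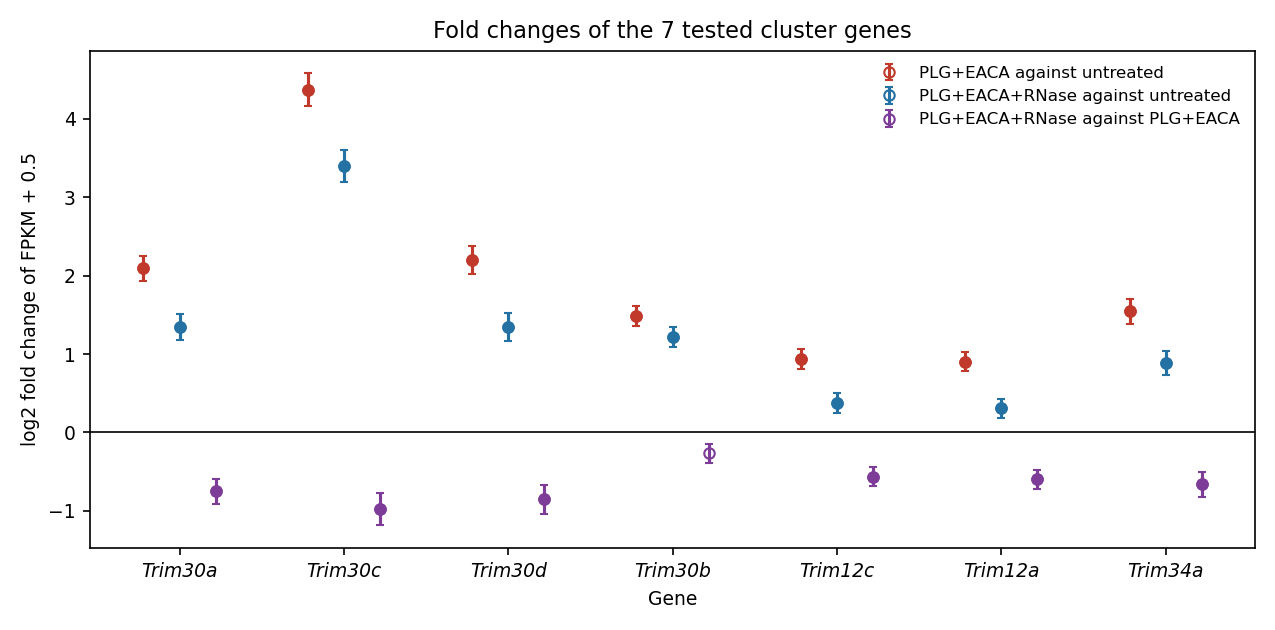
Log2 fold changes of FPKM + 0.5 of the 7 tested cluster genes in the 3 comparisons, with bars of 1 SE; filled points passed an adjusted p of 0.05. The largest value is 4.37 for Trim30c with PLG+EACA, and Trim30b between the treatments is the only open point.

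The Trim12 genes, relatives of TRIM5, rose less. Trim12c was at 10.8, 10.7, 9.11 and 9.39 FPKM in untreated libraries, at 19.4, 17.5, 19.9 and 21.6 in PLG+EACA, and at 13.8, 10.6, 11.7 and 17.1 in PLG+EACA+RNase. PLG+EACA overlapped with neither other group, whereas PLG+EACA+RNase overlapped with untreated. By limma, Trim12c was 0.94 (SE 0.13, adjusted p = 3.96e-05) above untreated on the log2 scale with PLG+EACA and 0.37 (adjusted p = 0.0195) with PLG+EACA+RNase, and 1.48-fold lower in PLG+EACA+RNase than in PLG+EACA (adjusted p = 0.0122). The rise with PLG+EACA+RNase missed the threshold without untreated replicate 3 (0.33, adjusted p = 0.0558) and was 0.25 without PLG+EACA+RNase replicate 4.

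Trim12a showed the same order of groups. Its FPKM was 4.03, 4.73, 4.49 and 4.04 in untreated libraries, 9.87, 8.06, 8.12 and 8.03 in PLG+EACA, and 5.13, 4.67, 4.95 and 7.41 in PLG+EACA+RNase. PLG+EACA was above both other groups, and the lowest PLG+EACA+RNase library was under the highest untreated one. Trim12a was 0.90 (SE 0.12) above untreated on the log2 scale with PLG+EACA (limma, adjusted p = 4.37e-05) and 1.51-fold lower in PLG+EACA+RNase than in PLG+EACA (adjusted p = 0.00979). The rise with PLG+EACA+RNase over untreated was small, 0.31 (adjusted p = 0.0425). It missed the threshold in 8 of 13 fits that left out libraries, and was 0.17 (adjusted p = 0.0908) without PLG+EACA+RNase replicate 4 and adjusted p = 0.0667 with the replicate number as a block.

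Trim34a, a relative of human TRIM34, was at 7.31, 7.52, 5.51 and 5.54 FPKM in untreated libraries, at 19.3, 18.5, 20.001 and 20.97 in PLG+EACA, and at 11.6, 10.2, 10.6 and 17.9 in PLG+EACA+RNase. The 3 groups did not overlap. Limma gave 1.55 (SE 0.16, adjusted p = 5.19e-06) and 0.88 (adjusted p = 0.000384) over untreated on the log2 scale. PLG+EACA+RNase was 1.58-fold lower than PLG+EACA (adjusted p = 0.0158), a call that was lost without PLG+EACA+RNase replicate 2 (adjusted p = 0.0521) or replicate 3 (adjusted p = 0.054).

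Trim34b did not pass the filter. It was at 0.174, 0.402, 0.106 and 0.129 FPKM in untreated, 0.416, 0.072, 0.242 and 0.185 in PLG+EACA and 0.186, 0.321, 0.251 and 0.228 in PLG+EACA+RNase libraries, from 3 to 15 reads each. The groups overlapped throughout. With no filter on low values, limma gave log2 fold changes of 0.05, 0.10 and 0.05 with adjusted p of 0.939, 0.682 and 0.883, and a difference was not detectable at this depth.

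Some values depend on how reads of near-identical copies were assigned, which the sources used here do not state. Of the 75-base windows of Trim34a transcripts in GENCODE M21, 48.6% also occur in another gene, 29.5% in Trim34b. Of the windows of Trim34b, 42.5% also occur in Trim34a, and whether its low level reflects read assignment was not tested. The shared portion was 17.3% for Trim12c, 5.58% for Trim12a, 4.98% for Trim30a, 5.4% for Trim30d and 0.39% for Trim30b. Trim30c shared 0 such windows. Exons of Trim34a share 609 bases with the antisense gene Gm47248. Windows were compared with genes outside the cluster on both strands, so the 48.6% can include this overlap. Strand use in counting is not stated.

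Read against the whole table, PLG+EACA against untreated called 7 of 7 tested cluster genes higher, where 14.9% of the 11165 genes were called higher. The groups of all 7 did not overlap, against 13.8% of genes for which PLG+EACA was wholly above untreated. PLG+EACA+RNase against untreated called 7 of 7 higher (16% of genes), with 5 of 7 not overlapping (15% of genes). PLG+EACA+RNase against PLG+EACA called 6 of 7 lower (8.73% of genes), and those 6 did not overlap (7.68% of genes). The median log2 fold change of the tested cluster genes was 1.55, 1.22 and -0.66 in these comparisons, and that of all genes -0.26, -0.20 and 0.04. The comparisons with untreated share the untreated libraries, and these counts include Trim30b, which passed the filter through treated libraries. The 8 genes were chosen with earlier results of these data known, so these counts describe them and are not independent evidence.

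The scale of the table bears on the counts over all genes. PLG+EACA against untreated called 1661 genes higher and 5963 lower as deposited, and 3113 higher and 2757 lower after median-of-ratios scaling. For PLG+EACA+RNase against untreated the split was 1783 and 5408 as deposited and 2808 and 3317 after scaling, and between the treatments 1349 and 975 as deposited and 865 and 1925 after scaling. That scaling moved the median of all genes to 0.00, -0.03 and -0.05 and that of the cluster to 1.82, 1.26 and -0.76, with every direction of the 7 genes kept. The 1.26 is again the value of Trim30b. In bulk RNA, fewer cells of a type and less RNA per cell cannot be told apart.

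The make-up of the cluster shifted towards Trim30c. Summed over the 8 genes, FPKM was 56.2 ± 7.31 in untreated, 252.5 ± 30.4 in PLG+EACA and 148.6 ± 42.3 in PLG+EACA+RNase libraries (SD, n = 4). Trim30c made up 4.12% ± 0.77, 22.7% ± 0.62 and 19.9% ± 1.46 of that sum. Trim30a kept 41.2%, 39.7% and 40.8%, and Trim30d 17.0%, 18.0% and 17.1%. Trim12c went from 17.9% to 7.79% and 9.05%, Trim12a from 7.77% to 3.41% and 3.77%, and Trim34a from 11.5% to 7.84% and 8.46%. These shares were not tested apart from the ratios above.

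**Figure D3:**
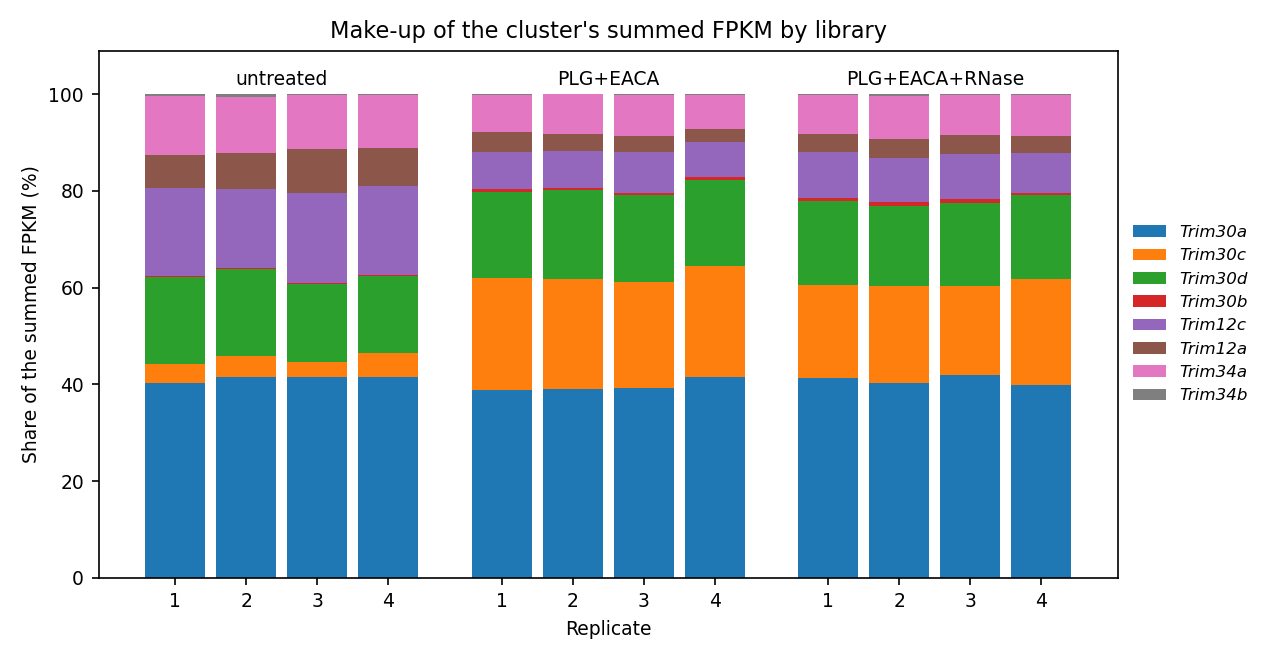
Share (%) of each of the 8 genes in the cluster's summed FPKM, 1 stacked bar per library, 4 libraries in each of 3 groups. Trim30c averages 4.12% in untreated, 22.7% in PLG+EACA and 19.9% in PLG+EACA+RNase libraries, while Trim30a averages 41.2%, 39.7% and 40.8%.

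In untreated macrophages the order of FPKM was Trim30a, then Trim12c and Trim30d with overlapping ranges, then Trim34a, Trim12a and Trim30c. Trim34b and Trim30b overlapped at the bottom. With PLG+EACA the order was Trim30a, then Trim30c and Trim30d overlapping, then Trim34a and Trim12c overlapping, then Trim12a, Trim30b and Trim34b. With PLG+EACA+RNase it was the same apart from Trim12c and Trim34a, which again overlapped and changed places.

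Trim6 and Trim5 are the expressed TRIM genes at this locus outside the cluster; how their changes compare with those of the cluster was not tested. Trim6, a ubiquitin ligase of the same branch, was at 0.912, 1.01, 0.869 and 0.803 FPKM in untreated, 1.70, 1.78, 1.62 and 1.55 in PLG+EACA and 2.15, 2.19, 2.15 and 2.49 in PLG+EACA+RNase libraries. None of its groups overlapped, and PLG+EACA+RNase was the highest. By limma it was 0.63 (adjusted p = 1.99e-05) and 0.97 (adjusted p = 9.9e-07) above untreated, and 0.34 higher in PLG+EACA+RNase than in PLG+EACA (adjusted p = 0.0126), the opposite direction to the 6 cluster genes that were lower there.

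Trim5, whose promoter aligns with that of Trim12a over 241 bases with 241 identical, did not pass in any comparison as deposited. It was at 1.45, 1.74, 1.43 and 1.65 FPKM in untreated, 2.11, 1.76, 1.61 and 1.67 in PLG+EACA and 1.29, 1.29, 1.28 and 1.72 in PLG+EACA+RNase libraries, and the groups overlapped. The log2 differences were 0.14 (adjusted p = 0.223), -0.13 (adjusted p = 0.277) and -0.28 (adjusted p = 0.0724) by limma, and after median-of-ratios scaling 0.37 (adjusted p = 0.0103), 0.01 and -0.36 (adjusted p = 0.0274), so that the first and the last were then called.

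**Figure D4:**
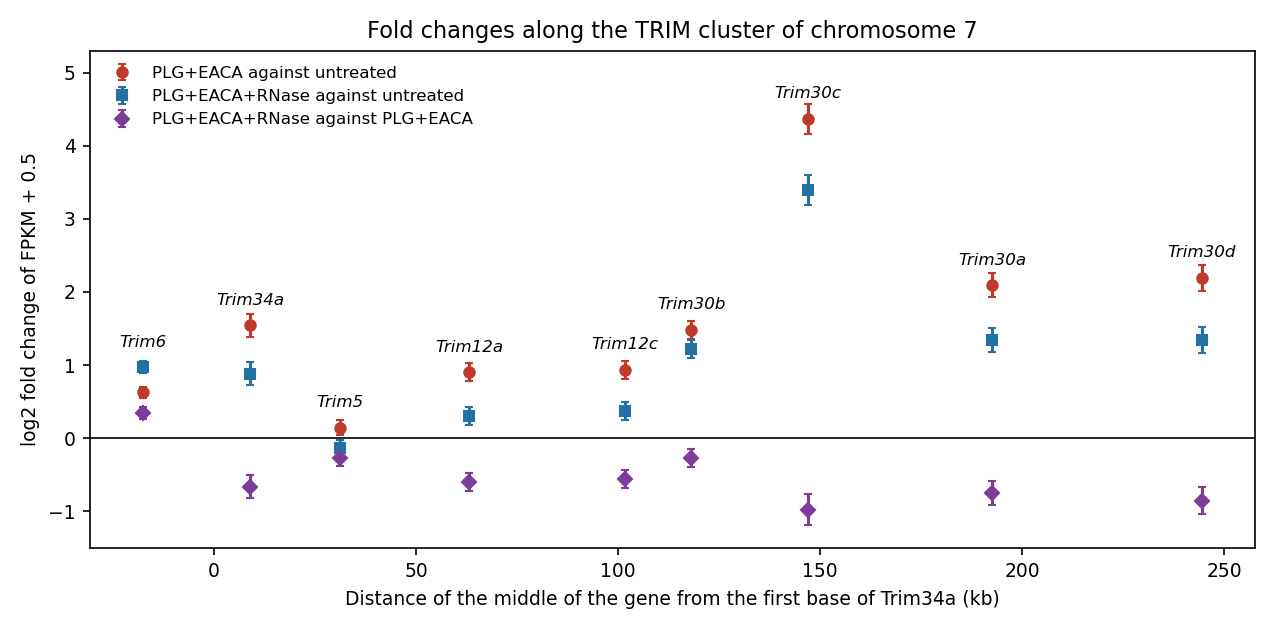
Log2 fold changes of FPKM + 0.5 (bars, 1 SE) of the 7 tested cluster genes and of Trim6 and Trim5 against the distance of the middle of each gene from the first base of Trim34a, in kb. Trim30c, 147 kb away, stands highest at 4.37, and Trim6 is the gene with a value above 0 (0.34) between the treatments.

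Within 200 kb of the cluster the table had 14 other genes, of which 6 were olfactory receptor genes and 6 were expressed. Besides Trim5 and Trim6 these were the long noncoding RNA Gm15133, the pseudogenes Gm45471 and Gm16464 and the small nuclear RNA Gm25405. Gm25405 lies within the span of Trim30a and Gm16464 within that of Trim30d. Gm25405, 107 bases long, had 1 to 3 reads in untreated, 8 to 16 in PLG+EACA and 3 to 7 in PLG+EACA+RNase libraries, too few for a fold change. Gm16464, with 11 to 25 reads in untreated and 78 to 96 in PLG+EACA libraries, was 3.47-fold higher with PLG+EACA (adjusted p = 1.7e-05, limma). Whether the reads of either came from the host gene was not tested. Gm45471, between Trim30c and Trim30a, was at 0.51 ± 0.27, 2.18 ± 0.75 and 3.12 ± 1.05 FPKM (SD, n = 4) in untreated, PLG+EACA and PLG+EACA+RNase libraries. Those values rest on 1 to 5 reads in untreated and 6 to 17 in treated libraries. Gm15133, with 5 to 26 reads, was 1.67-fold (adjusted p = 0.00534, limma) and 1.61-fold (adjusted p = 0.0088) above untreated. Its lowest PLG+EACA+RNase library, at 0.93 FPKM, was under its highest untreated one, at 1.12 FPKM. Gm15133 overlaps the span of Trim12a on the opposite strand with 0 shared exon bases. Whether its reads came from Trim12a was not tested.

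Among the other 59 genes of the table with a Trim symbol, 30 passed the filter, and they did not move as one. With PLG+EACA 7 rose and 19 fell against untreated by limma, with a median log2 fold change of -0.35 beside -0.26 for all genes. With PLG+EACA+RNase 7 rose and 13 fell, and between the treatments 3 were higher and 5 lower. Of all 11165 genes tested, 1661, 1783 and 1349 were called higher and 5963, 5408 and 975 lower in these comparisons. After median-of-ratios scaling the counts of the 30 genes were 9 and 11, 8 and 9, and 3 and 9. Trim8, a ubiquitin ligase, fell from 45.0 ± 0.98 to 22.7 ± 1.43 FPKM with PLG+EACA (SD, n = 4). Trim28, a transcriptional corepressor also named KAP1, fell from 26.8 to 15.9 FPKM.

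Of 9 TRIM genes listed as interferon-inducible, 8 passed the filter. By limma 7 rose and 0 fell with each treatment against untreated, and 1 was higher and 5 lower in PLG+EACA+RNase than in PLG+EACA; the medians were 0.87, 0.75 and -0.39. At an unadjusted p under 0.05 the counts against untreated were also 7 and 0. After median-of-ratios scaling 8, 7 and 1 were higher and 0, 0 and 6 lower. As deposited, 14.9% and 16% of all genes were called higher against untreated and 8.73% lower between the treatments. Trim25, the ubiquitin ligase that acts on the RNA sensor RIG-I, was at 30.4 ± 3.19, 73.4 ± 4.26 and 59.6 ± 7.36 FPKM in untreated, PLG+EACA and PLG+EACA+RNase libraries (SD, n = 4). Trim56, a ubiquitin ligase linked to STING signalling, was at 6.53 ± 0.68, 11.8 ± 0.83 and 10.97 ± 0.57 FPKM, and its difference between the treatments did not pass (limma, adjusted p = 0.374). Trim26 was at 8.47 ± 0.19, 15.7 ± 0.93 and 11.2 ± 2.23 FPKM. Trim21, the cytosolic antibody receptor, was at 5.64 ± 0.67, 18.0 ± 2.32 and 10.4 ± 3.13 FPKM, and Pml, the organizer of nuclear bodies, at 9.39 ± 0.71, 29.2 ± 5.47 and 18.7 ± 5.80 FPKM.

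The genes of type I interferon signalling, from ligand to transcription factors, were all 15 tested. With PLG+EACA 8 rose and 3 fell against untreated, with PLG+EACA+RNase 7 rose and 6 fell, and between the treatments 0 were higher and 8 lower in PLG+EACA+RNase by limma, with medians of 0.40, 0.09 and -0.31. At an unadjusted p under 0.05, 0 were higher and 13 lower between the treatments. After median-of-ratios scaling the counts were 11 and 1, 7 and 2, and 0 and 15. Over all 11165 genes as deposited, the counts higher and lower were 1661 and 5963, 1783 and 5408, and 1349 and 975. Ifnb1, the ligand interferon beta, was at 0.50 ± 0.18, 3.29 ± 0.55 and 2.18 ± 0.30 FPKM (SD, n = 4) in the 3 groups. Ifnar1, a receptor chain, was at 27.7 ± 0.56, 21.2 ± 1.36 and 18.7 ± 1.61 FPKM, and its fall with PLG+EACA did not pass after median-of-ratios scaling (adjusted p = 0.355). Irf3, the factor that first induces interferon beta, was at 10.9 ± 0.36, 7.51 ± 0.65 and 6.88 ± 0.53 FPKM. Stat2, a subunit of the factor that binds the response element, was at 27.7 ± 3.91, 87.8 ± 7.16 and 57.2 ± 15.5 FPKM. The transcription factor Irf1 was at 24.7 ± 2.22, 94.3 ± 8.17 and 72.8 ± 6.08 FPKM, and Irf7, the amplifier of interferon production, at 10.8 ± 2.37, 98.2 ± 29.1 and 50.1 ± 24.1 FPKM.

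The 10 genes of signalling routes that TRIM30a is known to restrain did not share a direction. By limma 4 rose and 4 fell with PLG+EACA and 2 rose and 4 fell with PLG+EACA+RNase against untreated, and 0 were higher and 4 lower between the treatments (2 and 5 at an unadjusted p under 0.05), with medians of 0.06, -0.07 and -0.11. After median-of-ratios scaling the counts were 6 and 2, 5 and 4, and 0 and 6. As deposited, 1661 and 1783 of all 11165 genes rose and 5963 and 5408 fell against untreated. Between the treatments 1349 of all genes were higher and 975 lower. Nlrp3, the inflammasome sensor, rose from 35.1 ± 1.79 to 98.1 ± 8.55 FPKM with PLG+EACA (SD, n = 4) and was at 80.5 ± 8.79 with PLG+EACA+RNase. Tmem173, which encodes the adaptor STING, fell from 37.5 ± 1.19 to 25.4 ± 1.91 FPKM with PLG+EACA and was at 23.7 ± 2.28 with PLG+EACA+RNase. Tab1, a subunit of the TAK1 kinase complex, fell from 6.39 to 3.91 FPKM with PLG+EACA. The NF-kB subunit genes Nfkb1 and Rela were at 42.8, 60.1 and 48.1 FPKM and at 60.2, 65.6 and 55.0 FPKM in the 3 groups. Tlr4, the receptor for lipopolysaccharide, was at 18.1, 15.0 and 11.9 FPKM, and Map3k7, which encodes TAK1, at 7.80, 6.50 and 6.19 FPKM. As deposited, Tlr4 and Map3k7 were called lower with PLG+EACA than untreated, and after median-of-ratios scaling neither was (adjusted p = 0.839 and 0.697, limma).

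Profiles were ranked by likeness without the cluster genes and without genes whose symbols are of the Gm, Rik, AC, AL or BC type. Among the genes ranked, those whose profile over the 12 libraries was most like that of Trim30a were Gbp5, Zbp1, Nlrc5, Parp14 and Gbp9. Their root mean square differences from Trim30a, on log2(FPKM + 0.5) centred on the untreated mean, were 0.095, 0.097, 0.097, 0.10 and 0.11. Within the cluster, Trim30d differed from Trim30a by 0.083 on that measure, Trim30b by 0.39, Trim34a by 0.42, Trim12c by 0.87, Trim12a by 0.93 and Trim30c by 1.78. The place of Trim30b depends on the 0.5 added to its low values. With PLG+EACA its mean FPKM rose 10.4-fold and that of Trim30a 4.35-fold. The genes most like the mean profile of the 7 tested cluster genes were Nlrc5, Gbp5, Gbp6, Daxx and Mlkl, at 0.099 to 0.12. All of these profiles share the same libraries.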

How the data were processed

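The deposited table held FPKM for 12 libraries; the submitters' processing notes list STAR 2.7.11a, featureCounts 2.0.6 and the build GRCm38.p6, then cutadapt 4.5, FastQC 0.12.1 and DESeq2 1.40.2, without saying what each did. Strand use and multi-mapping in counting are not given in the sources used here. The values carry no scaling between libraries beyond the total. Read numbers were derived from the smallest increments of FPKM times length. Only values of low read number were checked, 11735 to 15528 per library, and 100% of them lay within 0.1 of a whole number of reads.

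Groups came from the labels. Genes with FPKM of at least 1 in at least 4 libraries (11165) were fitted on log2(FPKM + 0.5) with limma 3.58.1 (R 4.3.3), all 3 groups in 1 model, two-sided, with Benjamini-Hochberg adjustment within each comparison at 0.05. The script was tested on simulated data. Ratios of 2 members were tested by exact permutation. Named genes were the members, expressed genes within 200 kb, the 5 most like profiles and, of each list, the 4 genes with the smallest p in any comparison; a gene named for one comparison is given with its values in all groups, and 1 gene that the rule selects is not reported here. The members and lists were chosen with earlier results of these data known. Alternatives changed the pseudocount, filter, scaling, block, groups fitted and libraries kept. Promoters were from RefSeq, transcripts from GENCODE M21.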

Additional observations from a re-analysis of the deposited data

Results flagged for a closer look

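Dixon's ratio, the gap of an extreme library to its nearest neighbour over the range of its group, was computed for 24 groups of 4 libraries (8 genes in 3 groups), and 2 groups passed Dixon's 95% critical value, where chance gives about 1 group in 20. Both belong to Trim12a. Its PLG+EACA replicate 1 was at 9.87 FPKM while the other PLG+EACA libraries were at 8.03 to 8.12 (ratio 0.953). Its PLG+EACA+RNase replicate 4 was at 7.41 FPKM while the other libraries of that group were at 4.67 to 5.13 (ratio 0.831).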

How the results depend on the processing

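Of 417 fold changes of the 7 tested cluster genes recomputed under the alternatives, 403 kept their direction and side of the threshold, 14 kept their direction and lost the call, and 0 changed direction. With PLG+EACA against untreated 7 cluster genes were called in every setting with at least 7 tested, and 6 of 6 with a filter of FPKM of at least 5. With PLG+EACA+RNase against untreated 5 to 7 were called, and 5 to 6 were lower than in PLG+EACA. Leaving out replicate 4 of both treatments, chosen after seeing the data, gave 7, 6 and 6. Trim12a with PLG+EACA+RNase against untreated had adjusted p = 0.0961 with no filter and 0.0605 when only those groups were fitted. Counts over all genes moved more. The filter of 5 FPKM left fewer genes to test, with 3546 lower and 4737 in all for PLG+EACA against untreated, 1115 higher, 3344 lower and 4459 in all for PLG+EACA+RNase against untreated, and 835 higher between the treatments. With no filter these were 3306 higher for PLG+EACA+RNase against untreated and 636 lower between the treatments. Scaled by median of ratios, the table gave 3113 higher and 2757 lower, 2808 and 3317, and 865 and 1925 in the 3 comparisons. Fitting the treated groups alone called 425 higher and 310 lower, 735 in all. Leaving out 1 library, the counts between the treatments ran from 514 to 1876 higher, 412 to 1304 lower and 929 to 3180 in all, the lowest without PLG+EACA+RNase replicate 2 or 3. The log2 ratio of Trim30b to Trim30a has no stable sign: with a pseudocount of 0.1 it was 0.49 (PLG+EACA) and 0.89 (PLG+EACA+RNase) above untreated, and with 0.5 it was -0.61 and -0.13. That of Trim30d to Trim30a with PLG+EACA+RNase was 0.020 with a pseudocount of 0.1 and -0.033 to 0.035 leaving out 1 library. That of Trim12a to Trim12c ran from -0.11 to 0.037 for PLG+EACA against untreated and from -0.10 to 0.041 between the treatments. The causes were not tested. Precision is limited by reads per untreated library, 12 to 21 for Trim30b and 4 to 11 for Trim34b.

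Same-numbered libraries deviated together with r from -0.18 to 0.33, above 0.1 in 3 of 12 pairs. Between the treated groups r was 0.33 for replicate 4, 0.19 for replicate 2 and -0.18 for replicate 1. It was 0.15 for replicate 3 of untreated and PLG+EACA. Differently numbered libraries had r from -0.34 to 0.12. The labels do not say if the numbers pair the libraries, and these values do not settle it. With the replicate number as a block, 7, 6 and 6 cluster genes and 7697, 7284 and 2678 genes in all were called.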

Other observations

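Trim59, a TRIM gene outside the cluster with the smallest p of its list between the treatments, was at 0.988, 1.11, 0.991 and 1.21 FPKM in untreated, 1.90, 1.64, 2.52 and 1.04 in PLG+EACA and 4.26, 5.41, 5.28 and 3.42 in PLG+EACA+RNase libraries. The PLG+EACA+RNase libraries were above all others, and PLG+EACA overlapped with untreated. By limma, Trim59 was 1.18 higher on the log2 scale in PLG+EACA+RNase than in PLG+EACA (adjusted p = 0.0038) and 1.68 higher than in untreated libraries (adjusted p = 1.03e-05).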
